A study of Mus musculus with 38 samples.

Results

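TNF is an inflammatory cytokine that signals through its receptors and the I-kappa-B kinase complex to NF-kB, a family of dimeric transcription factors of which RelA is the main activating subunit in fibroblasts. The response comes in waves: immediate early genes and NF-kB inhibitors rise first, chemokines and adhesion molecules follow, and later waves often include interferon-stimulated genes, which interferon signalling switches on. Resolution is the return of early genes toward their resting level, for which NF-kB target genes such as Nfkbia and Tnfaip3 encode the brakes.

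The step described here is the change between 3 h and 8 h of TNF in wild-type (WT) primary embryonic fibroblasts of C57BL/6 mice. It rests on 4 of the 38 samples of the series, 2 at 8 h and 2 at 3 h, chosen by the genotype, agent and time in their labels. All cells, untreated ones included, were first held overnight in 0.5% bovine calf serum, and TNF was then given at 10 ng/ml. The step was read beside 3 further sets of WT libraries, untreated and after 0.5 h and 1 h of TNF, and beside the same step in homozygous knock-in fibroblasts named RelA-TA-KI in the labels, with 2 libraries per group. The letters TA are taken to mean transactivation because the series title speaks of it. Rela itself had 163 and 148 CPM (counts scaled to library size) at 8 h and 141 and 155 CPM at 3 h in WT cells, and 128 and 120 CPM at 8 h and 121 and 122 CPM at 3 h in RelA-TA-KI cells, and a count per gene cannot show the altered protein. The labels do not say whether replicate numbers mark embryos, cultures or days. The p-values measure the spread between these samples, which may be technical in part. In WT cells same-numbered libraries shared sex at every time, as the next paragraph shows, and the tests did not pair them.

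The libraries held 7800937 and 8079852 counts at 8 h and 6893075 and 9360967 counts at 3 h. Of 13 fibroblast identity markers, all of them tested, 0 were called in the step by edgeR or by DESeq2 (1 higher and 2 lower at an unadjusted p below 0.05). As edgeR called 5.48% of all genes tested, 0 calls in so short a list is near the general share. The count does not show that the make-up of the cultures was stable. The same holds for other short lists with 0 called. The WT replicates differed in transcripts that mark sex. The X-inactivation transcript Xist had 426 and 3.90 CPM at 8 h and 337 and 2.47 CPM at 3 h (replicates 1 and 2), and the Y-linked gene Ddx3y had 0.256 and 143 CPM at 8 h and 0.147 and 160 CPM at 3 h. Xist counts exceeded Ddx3y counts in 5 of 5 WT libraries of replicate 1, in 0 of 5 of replicate 2, and in 5 of 5 RelA-TA-KI libraries of each replicate number; the part of sex in the results was not tested. Macrophage and leukocyte markers summed to 1533 and 2451 CPM at 8 h and to 1226 and 2015 CPM at 3 h, with 0 of 20 called by edgeR or by DESeq2, 0 of 20 at an unadjusted p below 0.05 and 0 of 20 at zero. The count of 0 of 20 called is again near the share of all genes. In bulk RNA, a change in the number of cells of a type and a change in RNA per cell cannot be told apart. CPM values are not corrected for gene length, so they are compared between libraries and not between genes.

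Between 3 h and 8 h, the 15 largest called rises (genes averaging 20 counts or more) included the antiviral genes Ifi44, Oas3, Usp18 and Isg15, the GTPase genes Tgtp2 and Iigp1, the interferon regulator Irf7, the serum amyloid gene Saa3 and complement C3. By the same rule the largest falls were those of Nr3c2, Cd83 and Nr4a3. Of 13843 genes tested, 759 (5.48%) passed edgeR's quasi-likelihood test at a Benjamini-Hochberg adjusted p below 0.05, 430 (3.11%) higher and 329 (2.38%) lower at 8 h. The median log2 change was 0.67 among those called higher and -0.55 among those called lower, and 134 rose and 42 fell by at least 2-fold. In all 759 the 8 h and 3 h libraries did not overlap, against 22.8% of all genes tested with 8 h above 3 h and 21.5% with 8 h below 3 h. The calls rest on these same libraries, so this contrast is a description and not separate support. The spread was estimated over all 20 TNF libraries: a fit on the 10 WT libraries called 275 genes, and one on the 4 libraries of the step called 1 (1720 had an unadjusted p below 0.05). The count also fell to 196 without replicate 2 of 8 h, to 292 without replicate 1 of 3 h and to 391 without replicate 2 of 3 h.

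**Figure D1:**
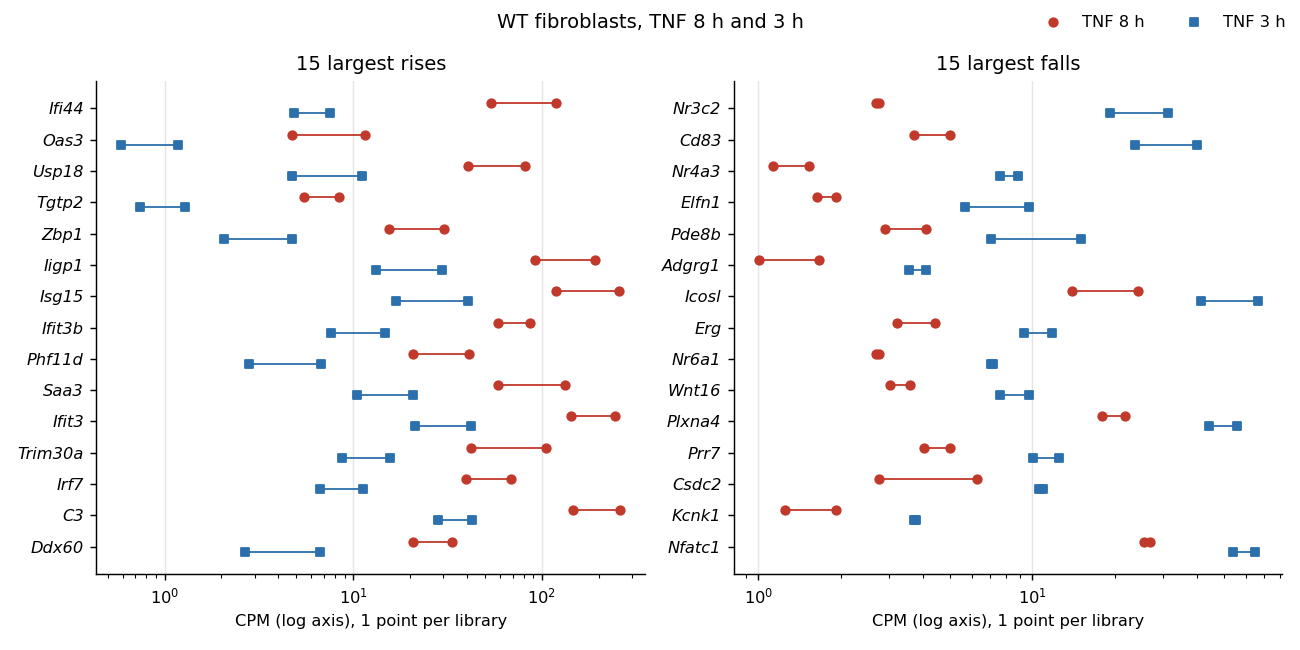
CPM (log axis) in each of the 4 WT libraries for the 15 largest rises and the 15 largest falls that were called (genes averaging 20 counts or more), with the 8 h libraries as circles and the 3 h libraries as squares. Lines join the 2 libraries of a time. The rule that chose these genes also required that the 2 times not overlap. Ifi44 (53.9 and 119 CPM at 8 h, 4.87 and 7.52 CPM at 3 h) leads the rises.

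Of the 430 genes called higher in the step, 18 (4.19%) had already been called higher at 1 h of TNF against untreated cells, a comparison that called 527 genes (3.81%), 2.57% of all genes tested higher and 1.24% lower. Of the 329 called lower, 61 (18.5%) had been called higher at 1 h. At 8 h, 343 of the 430 (79.8%) lay above both untreated libraries, against 28.1% of all genes, and 237 of the 329 (72.0%) lay below both, against 28.4% of all genes. At 3 h, by contrast, 158 of the 430 were above both untreated libraries (26% of all genes were), 147 were below both (26.4% of all genes were) and 125 overlapped them. For the genes called lower, 173 of 329 stood above both untreated libraries at 3 h and 44 did so at 8 h. By these counts most rises of the step ended above both untreated libraries, and most falls ended below both. The calls used the same 8 h and 3 h libraries, so these shares are a description and not separate support.

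Promoter sequences of 6 genes are shown because the groups that moved differ in the short motifs near their starts. They are the 140 bases before the RefSeq start, 5′ to 3′ along the gene (RefSeq, GRCm38.p6), with motif letters in capitals. Isg15 (chr4:156200819-156200958, minus strand), Oas3 (chr5:120777660-120777799, minus strand), Ddx60 (chr8:61927947-61928086, plus strand) and Igtp (chr11:58199416-58199555, plus strand) are late risers of the interferon-stimulated groups. Mmp3 (chr9:7445682-7445821, plus strand) is the late riser with the smallest p, and Nfkbia (chr12:55492648-55492787, minus strand) is an early NF-kB target that was not called in the step.
Isg15: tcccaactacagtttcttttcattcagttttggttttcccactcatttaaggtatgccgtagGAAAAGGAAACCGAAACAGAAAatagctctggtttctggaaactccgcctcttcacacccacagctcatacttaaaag
Oas3: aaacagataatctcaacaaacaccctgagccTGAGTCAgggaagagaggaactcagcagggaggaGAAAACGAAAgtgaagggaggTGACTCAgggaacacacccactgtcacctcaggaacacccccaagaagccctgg
Ddx60: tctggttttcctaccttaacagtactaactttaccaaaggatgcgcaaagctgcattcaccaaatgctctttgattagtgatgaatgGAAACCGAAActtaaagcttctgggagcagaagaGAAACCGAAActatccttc
Igtp: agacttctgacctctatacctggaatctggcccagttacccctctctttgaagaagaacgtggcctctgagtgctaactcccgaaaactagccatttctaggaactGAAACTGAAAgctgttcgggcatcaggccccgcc
Mmp3: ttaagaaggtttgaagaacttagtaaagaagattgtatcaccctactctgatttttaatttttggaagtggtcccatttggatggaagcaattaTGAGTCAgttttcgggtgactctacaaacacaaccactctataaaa
Nfkbia: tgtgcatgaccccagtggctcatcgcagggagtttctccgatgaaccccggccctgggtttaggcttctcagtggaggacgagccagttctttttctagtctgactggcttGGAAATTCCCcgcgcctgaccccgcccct
The motifs searched on both strands were the core of the interferon-stimulated response element (ISRE), 1 form of 10 letters, 5 forms of the kappa B site of 10 letters each, and the AP-1 site TGACTCA. Capitals mark the ISRE core in Isg15 (3 overlapping matches, merged in the print), Ddx60 (2 matches) and Igtp (1 match). In Oas3 they mark 1 ISRE core between 2 AP-1 matches, in Mmp3 1 AP-1 match 46 to 40 bases before the start, and in Nfkbia 1 kappa B match 29 to 20 bases before it. In the 250 bases before and 50 after each start, 57 of 463 promoters of genes called higher held the ISRE core (12.3%, 95% exact binomial interval 9.46 to 15.7%), against 10 of 325 promoters of genes called lower (3.08%, 1.49 to 5.59%) and 424 of 13582 promoters of all genes tested (3.12%). The share was 7.77% without replicate 2 of 8 h. The ISRE core was found in 15 of 32 promoters of the antiviral genes and in 9 of 11 promoters of the GTPases. Kappa B forms were in 16 of 143 promoters (11.2%) of genes raised at least 2-fold by 1 h, against 0.567% of all promoters and 9 of 463 (1.94%) among genes called higher in the step. AP-1 letters were in 6.70% of promoters of genes called higher and in 3.90% of all promoters. A match describes the letters of the window and is neither a bound site nor a cause.

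Antiviral interferon-stimulated genes, whose products block viral entry, translation and replication, were called higher in most cases. Of 40 tested, 25 (62.5%, against 3.11% of all genes tested) were called higher and 0 lower, with a median log2 change of 1.66 beside -0.00076 over all genes, and 39 of 40 changes were positive. Ifi44, an interferon-induced protein, had 53.9 and 119 CPM at 8 h against 4.87 and 7.52 CPM at 3 h, a log2 change of 3.77 ± 0.53 (SE; edgeR, adjusted p = 0.0014). Isg15, a ubiquitin-like modifier, had 119 and 256 CPM at 8 h against 16.8 and 40.7 CPM at 3 h (log2 change 2.67 ± 0.58, adjusted p = 0.017). Usp18, the protease that removes ISG15 and dampens the interferon receptor, had 40.9 and 81.9 CPM at 8 h against 4.72 and 11.1 CPM at 3 h (log2 change 2.91 ± 0.52, adjusted p = 0.0056). In each of these 3 genes both 8 h libraries exceeded both 3 h libraries, which the rule for the largest rises required. Replicate 2 was the higher library at both times. Oas3, a sensor enzyme that activates RNase L, rose by 3.12 on the log2 scale, with 4.74 and 11.6 CPM at 8 h and 0.590 and 1.18 CPM at 3 h. Zbp1, a sensor of Z-form nucleic acid, rose by 2.70, and Ifit1 and Ifit3, which bind viral RNA ends or act with such binders, rose by 2.17 and 2.59. Ddx60, an RNA helicase, rose by 2.49 and Bst2 (tetherin), which holds budding virions at the membrane, by 1.78.

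The antiviral genes did not follow the early wave. Over the time course their summed level was 900 and 1404 CPM in untreated cells, 738 and 1047 CPM at 0.5 h, 786 and 1066 CPM at 1 h, 1334 and 2004 CPM at 3 h and 3257 and 5020 CPM at 8 h (replicates 1 and 2). The sum was lower at 0.5 h and 1 h than in untreated cells in both replicates, and replicate 2 exceeded replicate 1 at every time. At 1 h, 0 of the 40 genes were called higher and 0 lower, near the shares of all genes (2.57% and 1.24%). Their median log2 change at 1 h against untreated cells was -0.55, beside -0.0038 over all genes. Isg15 had 12.8 and 41.0 CPM in untreated cells, 7.70 and 24.9 CPM at 0.5 h, 8.91 and 25.8 CPM at 1 h, 16.8 and 40.7 CPM at 3 h and 119 and 256 CPM at 8 h. Its 3 h libraries therefore overlapped the untreated ones. The macrophage marker sums were 1533 and 2451 CPM at 8 h and 1226 and 2015 CPM at 3 h (replicates 1 and 2). They overlapped between the times but were higher at 8 h within each replicate number. Their part in the rise of the antiviral genes was not tested. The count of 25 fell to 8 without replicate 2 of 8 h and to 8 without replicate 1 of 3 h, and to 12 in the fit on the 10 WT libraries.

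Guanylate-binding proteins and immunity-related GTPases, which attack the vacuoles of intracellular microbes, moved the same way: 11 of 16 tested were called higher, 0 lower, and all 16 changes were positive (median log2 change 1.70). Gbp2 rose by 1.25 ± 0.26 on the log2 scale (adjusted p = 0.014). It had 14.8 and 25.5 CPM in untreated cells, 12.2 and 17.3 CPM at 0.5 h, 23.5 and 26.1 CPM at 1 h, 218 and 368 CPM at 3 h and 546 and 855 CPM at 8 h, so it was already above the untreated libraries at 3 h. Igtp (Irgm3), a regulator of the effector GTPases, had 57.1 and 93.1 CPM at 8 h against 13.4 and 23.5 CPM at 3 h (log2 change 2.00 ± 0.35, adjusted p = 0.0046). Iigp1, an effector GTPase, had 92.6 and 191 CPM at 8 h against 13.3 and 29.4 CPM at 3 h (log2 change 2.70 ± 0.53, adjusted p = 0.0094). Tgtp2 rose by 2.72, Gbp10 by 2.58, Gbp4 by 2.33 and Gbp3 by 1.95. The summed level of the 16 was 1486 and 2400 CPM at 8 h, against 613 and 994 CPM at 3 h. Without replicate 2 of 8 h, and likewise without replicate 1 of 3 h, 1 of the 16 was called. These families, like the Ifit, Serpina3 and MHC genes, lie in clusters of near-identical copies, and how reads shared between copies were counted is not given in the sources used here, so the split among copies is uncertain.

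Some transcription factors that carry interferon signalling, and some sensors upstream of it, rose as well. Of 17 tested interferon pathway genes, 8 were called higher and 0 lower (median log2 change 0.44). Irf7, which drives interferon-alpha genes, had 39.6 and 69.0 CPM at 8 h against 6.64 and 11.3 CPM at 3 h (log2 change 2.57 ± 0.38, adjusted p = 0.0018). The interferon-responsive transcription factor genes Stat2 and Irf9 rose by 1.26 and 1.19. The RNA sensors Ifih1 (MDA5), Ddx58 (RIG-I) and Tlr3 rose by 1.67, 1.04 and 1.61. Irf1, an early NF-kB target, was not called and had 182 and 233 CPM at 8 h and 174 and 232 CPM at 3 h. The interferon genes themselves did not pass the filter on low counts. Ifnb1 had 0 and 1 counts at 8 h and 0 and 0 counts at 3 h, and 1 count in all over the 10 WT libraries of the TNF table. Ifna2 and Ifna4 had 0 counts in those 10 libraries. The count of 8 fell to 5 without replicate 2 of 8 h and to 4 without replicate 1 of 3 h.

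**Figure D2:**
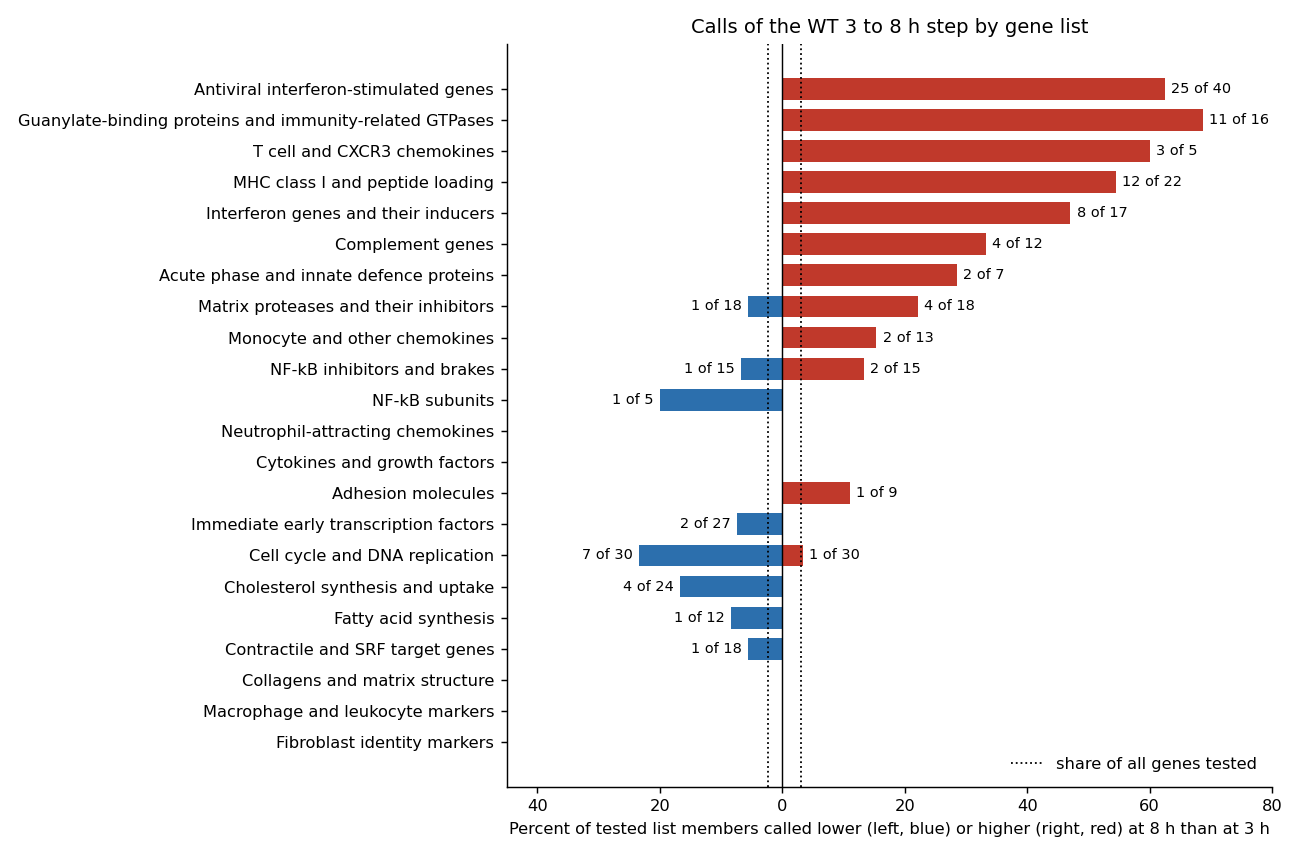
Percent of the tested members of each gene list that were called higher (right) or lower (left) at 8 h than at 3 h in WT cells, with the counts beside the bars and the shares of all genes tested (3.11% higher, 2.38% lower) as dotted lines. The GTPases (11 of 16), the antiviral genes (25 of 40) and the T cell chemokines (3 of 5) have the longest bars to the right, and the cell cycle list (7 of 30) and the NF-kB subunits (1 of 5) the longest to the left.

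MHC class I genes and the machinery that loads peptides onto them followed. Of 22 tested, 12 were called higher and 0 lower, with a median log2 change of 0.84. Nlrc5, the transactivator of class I genes, had 17.8 and 33.2 CPM at 8 h against 4.42 and 6.56 CPM at 3 h (log2 change 2.19 ± 0.36, adjusted p = 0.0031). Tap1, a subunit of the peptide transporter, had 83.0 and 129 CPM at 8 h against 37.9 and 47.8 CPM at 3 h (log2 change 1.30 ± 0.17, adjusted p = 0.00084). B2m, the class I light chain, had 751 and 998 CPM at 8 h against 474 and 577 CPM at 3 h (log2 change 0.73 ± 0.14, adjusted p = 0.0097). Tapbp (tapasin) rose by 0.99 and the immunoproteasome subunits Psmb8 and Psmb10 by 1.49 and 1.19. In 21 of the 22 genes the 8 h and 3 h libraries did not overlap in either direction, against 6124 of all 13843 genes tested. Of the 22 changes, 19 were positive. Among 4 tested class II genes 1 was called, Cd74, the invariant chain gene, which rose by 1.54. The class I count was 3 without replicate 2 of 8 h and 4 without replicate 1 of 3 h.

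Some chemokines went on rising in the step. Of 5 T cell and CXCR3 chemokines, 3 were called higher: Ccl5, Cxcl9 and Cxcl10. Ccl5, which recruits T cells and monocytes, had 264 and 334 CPM at 8 h against 55.0 and 77.1 CPM at 3 h (log2 change 2.17 ± 0.17, adjusted p = 2.3e-05). Ccl5 had 0.725 and 0.908 CPM in untreated cells, 0.540 and 0.922 CPM at 0.5 h, 3.18 and 2.23 CPM at 1 h, 55.0 and 77.1 CPM at 3 h and 264 and 334 CPM at 8 h, a climb that was still going on in the step. Cxcl9 had 88.8 and 202 CPM at 8 h against 22.9 and 42.6 CPM at 3 h (log2 change 2.14 ± 0.34, adjusted p = 0.0026). Cxcl10 had 629 and 1011 CPM at 8 h against 328 and 479 CPM at 3 h (log2 change 1.02 ± 0.27, adjusted p = 0.044). Its call was lost by DESeq2 (adjusted p = 0.106), which called 2 of the 5, and without replicate 2 of 8 h (adjusted p = 0.374), replicate 1 of 3 h (0.278) or replicate 2 of 3 h (0.055). Among 13 monocyte and other chemokines, 2 were called higher, Ccl8 (log2 change 2.25) and Ccl2, the main monocyte attractant, with 1573 and 1716 CPM at 8 h against 1087 and 1251 CPM at 3 h (log2 change 0.49 ± 0.14, adjusted p = 0.0497). The call of Ccl2 was lost in 7 of 12 alternatives. Of 6 neutrophil-attracting chemokines, 0 were called by edgeR or by DESeq2 and 0 had an unadjusted p below 0.05. Cxcl1 had 40.2 and 45.1 CPM at 8 h and 43.4 and 60.4 CPM at 3 h, and Cxcl2 had 12.8 and 14.7 CPM at 8 h and 17.4 and 24.1 CPM at 3 h. Both stayed above untreated cells, which had 2.03 and 3.23 CPM of Cxcl1 and 0.145 and 0.303 CPM of Cxcl2.

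Some secreted defence proteins and matrix proteases also rose. C3, the central complement protein, had 147 and 260 CPM at 8 h against 28.3 and 42.5 CPM at 3 h (log2 change 2.51 ± 0.33, adjusted p = 0.00084). Of 12 complement genes, 4 were called higher and 0 lower: C3, the classical pathway protease genes C1s1 (1.39) and C1ra (1.09), and Cd55 (0.68), which protects host cells from complement. Of 7 acute phase genes, 2 were called higher: the serum amyloid gene Saa3, with 58.8 and 133 CPM at 8 h against 10.5 and 20.9 CPM at 3 h (log2 change 2.59), and Lbp, the LPS-binding protein, with 35.5 and 58.6 CPM at 8 h against 6.19 and 11.9 CPM at 3 h (log2 change 2.35). Mmp3 (stromelysin; chr9:7445822-7455972, mm10) had the tightest values of the group, 245 and 231 CPM at 8 h against 50.1 and 56.5 CPM at 3 h (log2 change 2.15 ± 0.11, adjusted p = 1.7e-07). Of 18 proteases and inhibitors, 4 were called higher, among them the gelatinase Mmp9 (1.62) and the collagenase Mmp13 (1.20), and 1 lower, the inhibitor Timp3, which fell by 0.24. Sod2 and Sod3, which remove superoxide, rose by 0.80 and 0.92, and the necroptosis effector Mlkl by 1.11. Of 26 collagens and structural matrix genes, 0 were called by edgeR or by DESeq2, with 6 lower and 0 higher at an unadjusted p below 0.05. The complement count was 2 without replicate 2 of 8 h and 2 without replicate 1 of 3 h.

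Several of the largest falls were of genes that had peaked at 1 h or 3 h. Nr3c2, the mineralocorticoid receptor (chr8:76899442-77245012, mm10), had 2.69 and 2.77 CPM at 8 h against 19.2 and 31.2 CPM at 3 h, a log2 change of -3.21 ± 0.31 (edgeR, adjusted p = 8.9e-05). It had 2.76 and 4.24 CPM in untreated cells, 2.70 and 1.98 CPM at 0.5 h and 2.67 and 3.72 CPM at 1 h, so its rise was seen at 3 h alone among the times sampled. Cd83, a surface protein of activated dendritic and other cells (chr13:43785107-43803130, mm10), had 3.71 and 5.03 CPM at 8 h against 23.6 and 39.8 CPM at 3 h (log2 change -2.86 ± 0.59, adjusted p = 0.012). Nr4a3, an orphan nuclear receptor of the immediate early class, had 1.54 and 1.13 CPM at 8 h against 8.85 and 7.63 CPM at 3 h (log2 change -2.61 ± 0.28, adjusted p = 0.00019), after a peak of 40.7 and 33.1 CPM at 1 h. Nfatc1, a calcium-regulated transcription factor, had 25.6 and 26.9 CPM at 8 h against 54.1 and 65.0 CPM at 3 h (log2 change -1.19 ± 0.11, adjusted p = 8.9e-05), and its untreated libraries had 23.1 and 26.3 CPM. Untreated libraries had 2.61 and 4.34 CPM of Cd83 and 2.61 and 1.82 CPM of Nr4a3. At 8 h these 4 genes thus lay near or below their untreated levels. Icosl, a costimulatory ligand of T cells, fell by 1.496 on the log2 scale but stayed at 14.0 and 24.3 CPM at 8 h, where untreated libraries had 2.32 and 3.43 CPM. Hcn4, a pacemaker channel gene called lower, had 0 counts in both 8 h libraries and 37 counts in both 3 h libraries together, so it was at least 12.1-fold lower at 8 h (a floor of 3 counts over the group).

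Among the 150 genes called higher by at least 2-fold at 1 h, the step called few, though a larger share than of all genes. It called 11 lower (7.33%) and 9 higher (6%), with a median log2 change of -0.08 (3.11% of all genes were called higher and 2.38% lower). In 44 of the 150 both 8 h libraries lay below both 3 h libraries, and in 31 above, against 21.5% and 22.8% of all genes. With a replicate block, 29 (within genotype) and 26 (shared by genotypes) were called lower. In 126 of the 150, both 8 h libraries were above both untreated libraries, against 28.1% of all genes tested. The 150 were chosen against these same untreated libraries, which favours a high count. The genes called lower include Nr4a3, Cd83, Nfatc1, the hyaluronan synthase Has1 (-1.69), the vesicle fusion gene Stx11 (-0.84) and the stress gene Gadd45b (-0.84). Gadd45b had 21.8 and 20.6 CPM in untreated cells, 95.9 and 113 CPM at 0.5 h, 135 and 153 CPM at 1 h, 66.4 and 70.5 CPM at 3 h and 40.9 and 35.6 CPM at 8 h, and remained above its untreated level. The genes that rose further include Cxcl9, Cxcl10, Traf1 (1.25), an adaptor of TNF receptors, Tnip3 (1.28), a partner of A20, and Casp4 (0.94), the caspase that senses intracellular LPS. In 81 of the 150, both 3 h libraries already lay below both 1 h libraries, against 25.3% of all genes tested, but the 150 were chosen for being high at 1 h. Immediate early factors had settled before the step: Fos had 8.12 and 8.57 CPM in untreated cells, 172 and 214 CPM at 0.5 h, 16.03 and 12.8 CPM at 1 h, 8.11 and 11.4 CPM at 3 h and 8.84 and 13.5 CPM at 8 h. Of 27 such factors, 2 were called lower, Nr4a3 and Jund (-0.24), and 0 higher. The count of 11 was 6 without replicate 2 of 8 h.

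**Figure D3:**
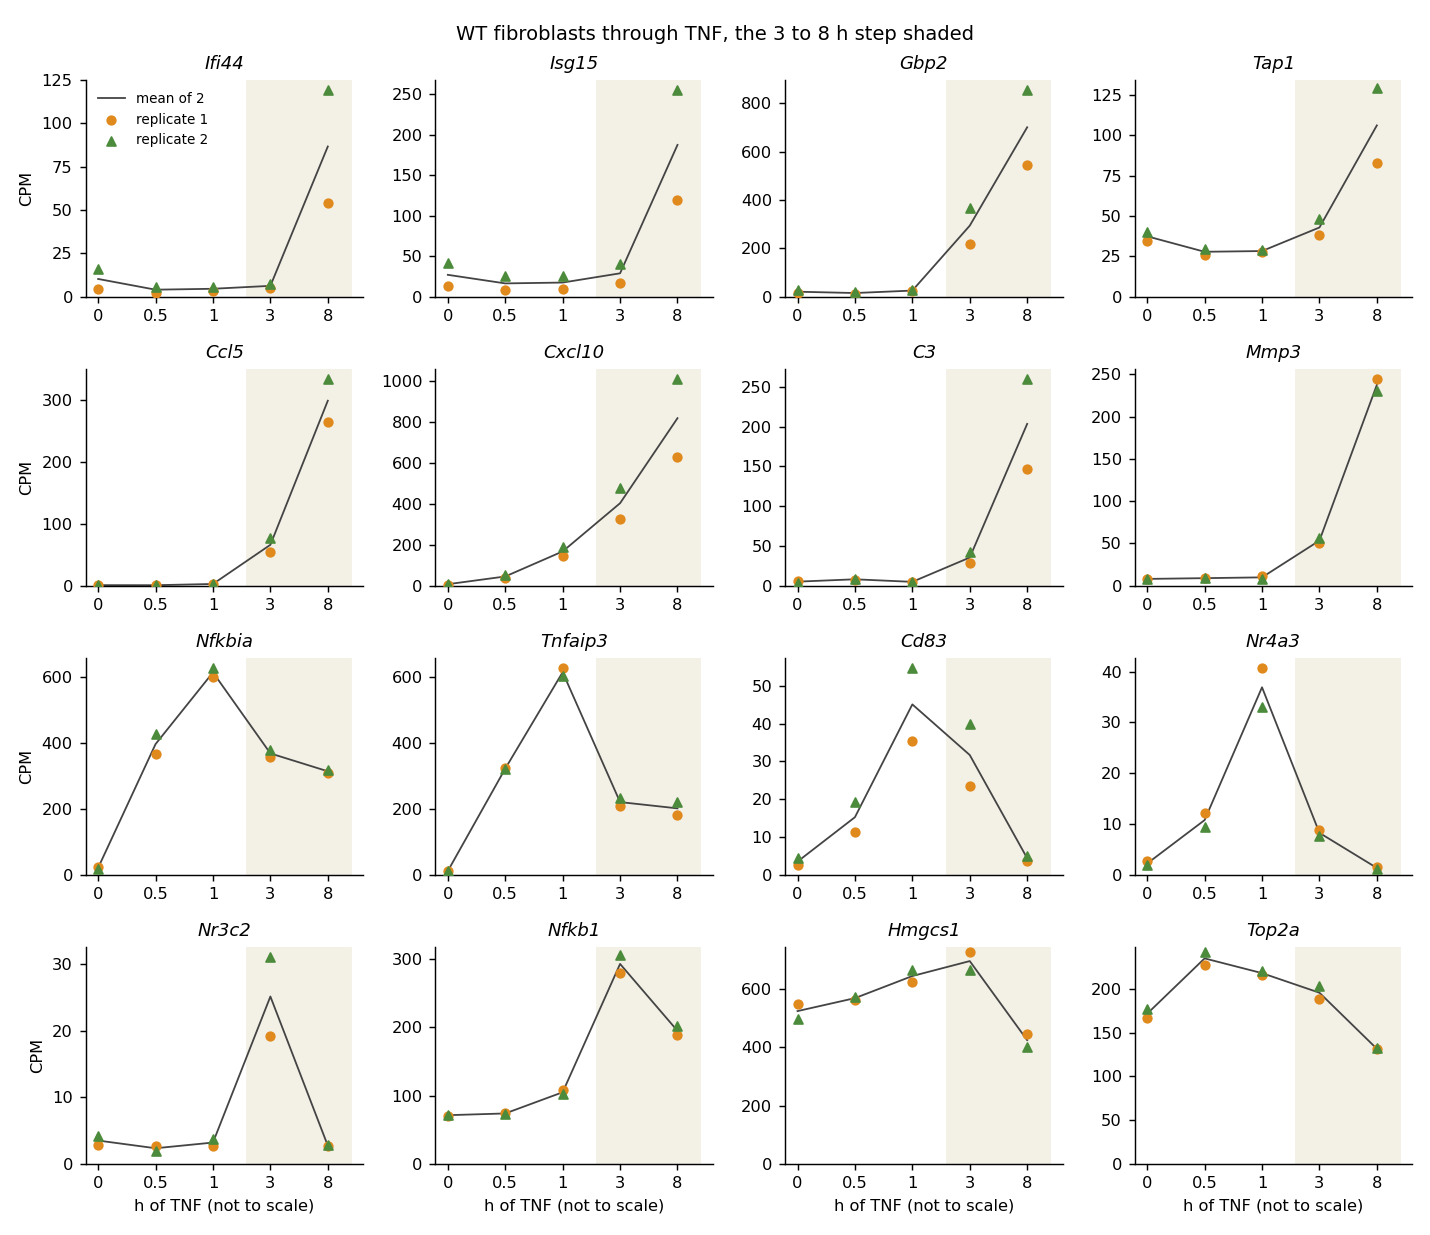
CPM through TNF in WT cells for 16 genes, with 1 point per library, a line through the mean of both and the step from 3 to 8 h shaded; the time axis is not to scale. Ifi44, Isg15, Gbp2, Tap1, Ccl5, C3 and Mmp3 climb in the shaded part, Nfkbia and Tnfaip3 peak at 1 h, are lower at 3 h and change little in the shaded part, and Cd83, Nr4a3 and Nr3c2 drop.

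Most NF-kB brakes were not called in the step. Nfkbia, which encodes the inhibitor that carries NF-kB out of the nucleus, had 22.9 and 18.8 CPM in untreated cells, 364 and 427 CPM at 0.5 h, 599 and 626 CPM at 1 h, 357 and 378 CPM at 3 h and 309 and 317 CPM at 8 h, and its step of -0.23 ± 0.10 did not pass the test (adjusted p = 0.22). Tnfaip3, which encodes the ubiquitin-editing enzyme A20, had 12.5 and 9.98 CPM in untreated cells, 324 and 319 CPM at 0.5 h, 626 and 601 CPM at 1 h, 208 and 232 CPM at 3 h and 181 and 221 CPM at 8 h (step -0.13, adjusted p = 0.64). Both genes thus had the larger part of their fall between 1 h and 3 h. Fits with a replicate block did call Nfkbia lower in the step (edgeR, lowest adjusted p = 0.018) and did not call Tnfaip3. Of 15 genes listed as NF-kB inhibitors and brakes, 2 were called higher (Tnip3 and Traf1) and 1 lower, Tnfaip2, which fell by 0.49. Membership of the list does not show that a gene inhibits NF-kB. Among the NF-kB subunits, 1 of 5 was called: Nfkb1, the p50 precursor, with 188 and 202 CPM at 8 h against 280 and 306 CPM at 3 h (log2 change -0.59 ± 0.07, adjusted p = 0.00023). Relb had 100 and 109 CPM at 8 h and 104 and 130 CPM at 3 h. Among adhesion molecules that bind leukocytes, Vcam1 had 1230 and 1585 CPM at 8 h and 1143 and 1629 CPM at 3 h, and Icam1 had 594 and 717 CPM at 8 h and 506 and 717 CPM at 3 h. Of 9 adhesion genes 1 was called, Madcam1, which rose by 2.40. Of 20 cytokines and growth factors, 0 were called by edgeR or by DESeq2, with 2 higher and 1 lower at an unadjusted p below 0.05. Il6 had 2.82 and 4.78 CPM at 8 h and 2.95 and 3.12 CPM at 3 h.

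Some cell cycle and lipid synthesis genes fell by small amounts. Of 30 cell cycle and replication genes, 7 were called lower and 1 higher, with a median log2 change of -0.27. Top2a, a topoisomerase of dividing cells, had 131 and 132 CPM at 8 h against 188 and 203 CPM at 3 h (log2 change -0.57 ± 0.08, adjusted p = 0.0018). The mitotic genes Ccnb1, Cdc20 and Aurka fell by 0.67, 0.57 and 0.61, whereas Cdt1, which licenses replication origins, rose by 0.65. Of 24 cholesterol genes, 4 were called lower and 0 higher, and all 24 changes were negative (median log2 change -0.48). Hmgcs1, an early enzyme of the pathway, had 448 and 402 CPM at 8 h against 729 and 664 CPM at 3 h (log2 change -0.71 ± 0.18, adjusted p = 0.03), and Mvd, Pmvk and Sqle fell by 0.76, 0.56 and 0.55. The summed level of the 24 was 3444 and 2920 CPM at 8 h against 4807 and 4268 CPM at 3 h. All 12 fatty acid genes changed negatively with 1 called (Acsl3, which fell by 0.53), and all 18 contractile genes did so with 1 called, the myosin kinase Mylk, which fell by 0.71. Outside these lists, the growth factor gene Tgfb2 fell by 0.63 and the Wnt ligand gene Wnt16 by 1.38. The cholesterol count was 0 when any library but replicate 1 of 8 h was left out, when it was 2, and the cell cycle count was 4 without replicate 1 of 8 h or either library of 3 h and 2 without replicate 2 of 8 h.

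The same step in RelA-TA-KI cells called more genes: 2651 of 13843 (19.2%), 1411 higher (10.2%) and 1240 lower (8.96%). The test of the difference between the steps, WT minus RelA-TA-KI, called 449 genes (3.24%), 191 higher (1.38%) and 258 lower (1.86%). In that test, 0 of 40 antiviral genes and 0 of 16 GTPases were called by edgeR or by DESeq2 (1 and 3, all lower, at an unadjusted p below 0.05), with medians of 1.66 and 1.70 in the WT step and 1.63 and 2.11 in the RelA-TA-KI step. As 3.24% of all genes were called, 0 of 40 and 0 of 16 are near the general share and do not show equal steps. The median difference was 0.16 for the antiviral genes and -0.59 for the GTPases. For Isg15 the difference was 0.38 ± 0.82 on the log2 scale, adjusted p = 0.87, an error too wide to show a moderate difference. Isg15 had 119 and 256 CPM at 8 h and 16.8 and 40.7 CPM at 3 h in WT cells, and 81.3 and 132 CPM at 8 h and 14.99 and 28.3 CPM at 3 h in RelA-TA-KI cells. For Gbp2 the difference of steps was -0.57 ± 0.40 (adjusted p = 0.51) while the levels stood apart. Gbp2 had 546 and 855 CPM at 8 h and 218 and 368 CPM at 3 h in WT cells, and 62.0 and 87.4 CPM at 8 h and 17.5 and 24.6 CPM at 3 h in RelA-TA-KI cells.

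Early TNF-induced genes were called in the difference of steps more often than all genes (1.38% higher and 1.86% lower). Their median difference was -0.60, close to that of the GTPases. Of the 150 genes raised at least 2-fold by 1 h in WT cells, 38 were called lower and 2 higher in the difference of steps; their median step was -0.08 in WT cells and 0.53 in RelA-TA-KI cells. Those 150 were chosen on WT libraries at 1 h and in untreated cells, which neither step uses. Nfkbia had 309 and 317 CPM at 8 h and 357 and 378 CPM at 3 h in WT cells, and 158 and 184 CPM at 8 h and 107 and 113 CPM at 3 h in RelA-TA-KI cells (difference -0.87 ± 0.15, edgeR, adjusted p = 0.0048). Tnfaip3 behaved likewise (difference -1.15 ± 0.19, adjusted p = 0.0041), with 72.3 and 101 CPM at 8 h and 42.5 and 43.2 CPM at 3 h in RelA-TA-KI cells. Of 20 cytokine genes, 0 were called in the WT step and 11 were called higher in the RelA-TA-KI step, and 5 were called lower in the difference. Il6 had 2.82 and 4.78 CPM at 8 h and 2.95 and 3.12 CPM at 3 h in WT cells, and 7.92 and 14.6 CPM at 8 h and 2.05 and 2.79 CPM at 3 h in RelA-TA-KI cells (difference -1.89 ± 0.48, adjusted p = 0.047). For Nr4a3 and Nr3c2 the steps also differed. Nr4a3 had 4.02 and 5.63 CPM at 8 h and 5.32 and 4.90 CPM at 3 h in RelA-TA-KI cells (difference -2.53 ± 0.37, adjusted p = 0.0022), and Nr3c2 had 1.38 and 1.13 CPM at 8 h and 1.69 and 1.34 CPM at 3 h there (difference -2.94 ± 0.57, adjusted p = 0.013). Of 24 cholesterol genes, 4 were called lower in the WT step and 21 in the RelA-TA-KI step, with medians of -0.48 and -1.06. All 24 changes were negative in the WT step. In the difference of steps 1 of the 24 was called, Hmgcs1 (0.97 ± 0.25, edgeR, adjusted p = 0.048). Over 15 alternatives the differences of Nfkbia and Nr4a3 kept their call, whereas Tnfaip3 lost it in 1, Nr3c2 in 4, Il6 in 8 and Hmgcs1 in 9. Macrophage markers in RelA-TA-KI cells summed to 2543 and 4796 CPM at 8 h and 1580 and 2649 CPM at 3 h; their part in the difference was not tested. Leaving out 1 library gave 167 to 467 calls of the difference, with the lowest count without replicate 2 of RelA-TA-KI at 8 h.

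**Figure D4:**
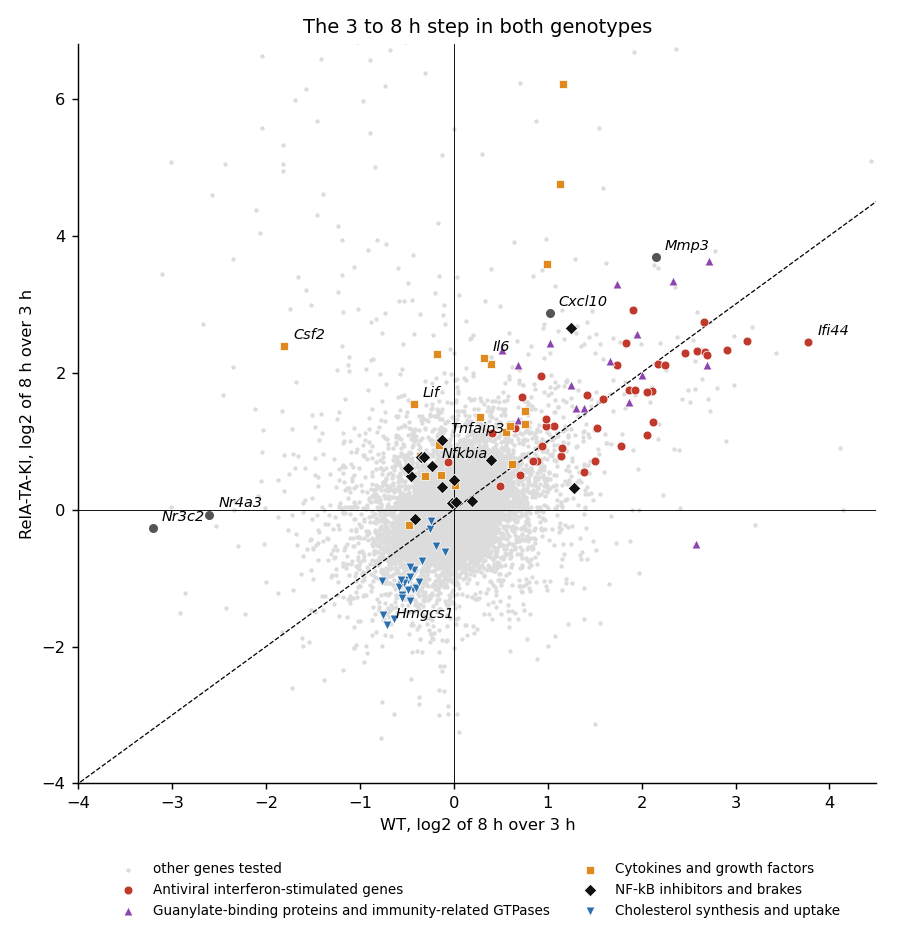
Log2 change from 3 to 8 h of TNF in WT cells (horizontal) and in RelA-TA-KI cells (vertical), with 1 point per gene, 5 gene lists in colour and the line of equal change dashed; 25 of 13843 genes lie outside the axes. The antiviral genes lie around the dashed line, and most cytokines and NF-kB brakes lie above it. The median difference, WT minus RelA-TA-KI, was 0.16 for the antiviral genes, -0.59 for the GTPases and -0.45 for the brakes. A negative difference lies above the line. The cholesterol genes lie below 0 on both axes.

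LPS (100 ng/ml), a bacterial ligand of TLR4, and Poly(I:C) (20 ug/ml), a viral RNA mimic sensed by TLR3, were given to WT cells in a separate experiment with 1 library per time, so the 8 h and 3 h libraries are compared with no replicate check and no test, and levels are not set against those of the TNF table. At 8 h against 3 h, 7.38% of 13694 genes were at least 2-fold higher and 10.9% at least 2-fold lower with LPS, and 3.7% and 3.35% with Poly(I:C). Of the 40 antiviral genes, 12 were at least 2-fold higher and 2 lower with LPS (median log2 difference 0.60), and 18 were higher and 1 lower with Poly(I:C) (median 0.80). Isg15 had 1887 CPM at 8 h and 1002 CPM at 3 h with LPS, and 1394 CPM at 8 h and 626 CPM at 3 h with Poly(I:C). Saa3 had 3496 CPM at 8 h and 224 CPM at 3 h with LPS, and 37.4 CPM at 8 h and 7.30 CPM at 3 h with Poly(I:C). Nr3c2 was lower at 8 h with both agents, at 10.3 CPM against 107 CPM at 3 h with LPS and at 10.9 CPM against 41.4 CPM at 3 h with Poly(I:C). The cholesterol genes went apart: the median log2 difference was -0.56 with LPS, with 3 of 24 positive, and 0.65 with Poly(I:C), with 22 of 24 positive.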

How the data were processed

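The TNF table holds 20 libraries of 10 groups, sequenced as poly(A)-selected, strand-marked, single-end reads, per the labels' protocols. Per the submitters' processing notes, reads were trimmed with cutadapt 1.9.1, aligned to mm10 with STAR and assigned to genes with featureCounts 1.4.6, and DESeq2 is listed too. The deposited values are raw counts per gene, which the authors did not normalize. The annotation release, strand setting and treatment of multiply mapped reads are not given in the sources used here.

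Counts of 45706 genes, 45143 with a symbol, were filtered with filterByExpr, leaving 13843, scaled by TMM and tested with edgeR 4.0.16 (R 4.3.3) quasi-likelihood F tests in 1 fit over 20 libraries (10 residual degrees of freedom, biological coefficient of variation 10.2%), Benjamini-Hochberg adjusted. Standard errors were derived from the log2 change and its F value. The tests ran first on simulated data. Totals were 6715022 to 9590932 counts, and replicates correlated at 0.982 to 0.989 (log2 CPM); intervals cover counting error only. Alternatives were RLE scaling, DESeq2 1.42.0, other filters, fits on fewer libraries, a replicate block and leaving out each library.

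The step's members and the 40 gene lists were chosen with earlier results of these data known. Named genes are the 15 largest called rises and falls (mean of at least 20 counts, libraries not overlapping, named symbol), the 4 largest called members of a list with any member used to describe it, the 8 largest called differences of steps in each direction, 10 largest falls and rises among genes raised by 1 h, and a fixed list of NF-kB targets. Hcn4 was chosen after its values were seen. 1 member of the interferon pathway list is not reported by name here.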

Additional observations from a re-analysis of the deposited data

Results flagged for a closer look

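The steps from 3 to 8 h differed between WT and RelA-TA-KI cells by edgeR's test of the difference itself (adjusted p below 0.05) for 28 genes whose difference is reported. Of these calls, 10 held in all 15 alternatives (Aldh1a3, Angpt1, Mmp3, Nfkb1, Nfkb2, Nfkbia, Nr4a3, Pik3ip1, Sema7a and Slitrk2) and 18 were lost in at least 1, with no sign turned. Values are log2, WT minus RelA-TA-KI.

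Among the largest positive differences was Angpt1, a vascular growth factor (2.10): it had 41.2 and 50.5 CPM at 8 h and 24.2 and 34.9 CPM at 3 h in WT cells, and 9.80 and 7.32 CPM at 8 h and 22.96 and 24.6 CPM at 3 h in RelA-TA-KI cells. The others were Atoh8 (2.18), Hoxd12 (2.04), Clec14a (2.02), Slitrk2 (1.85), Rspo2 (1.70), Meox2 (1.70) and Pik3ip1 (1.63).

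The largest negative differences were Krt5 (-8.67), Arg1 (-4.60), Sprr1a (-4.07), Col2a1 (-3.57), Col11a2 (-3.51), Sema7a (-3.35), Col9a1 (-3.12) and Aldh1a3 (-3.06). The call was lost in 8 of 15 alternatives for Arg1 and Col9a1, 7 for Col2a1 and Col11a2, 6 for Krt5 and 5 for Sprr1a. Col2a1, Col9a1 and Col11a2 encode cartilage collagens, and Krt5 and Sprr1a are keratinocyte genes. Col2a1 had 102 and 47.0 CPM at 8 h and 113 and 54.6 CPM at 3 h in WT cells, and 199 and 488 CPM at 8 h and 41.3 and 23.3 CPM at 3 h in RelA-TA-KI cells. Krt5 had 0.512 and 5.15 CPM at 8 h and 4.87 and 18.0 CPM at 3 h in WT cells, and 20.5 and 17.0 CPM at 8 h and 0.242 and 0.111 CPM at 3 h in RelA-TA-KI cells. The 10 epithelial markers, Krt5 among them, summed to 22.03 and 39.7 CPM at 8 h and 44.2 and 72.4 CPM at 3 h in WT cells, and to 80.8 and 93.7 CPM at 8 h and 25.3 and 32.5 CPM at 3 h in RelA-TA-KI cells, and their part in these differences was not tested.

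Among TNF response genes that are always reported, the difference was negative for Il6 (-1.89), Cxcl10 (-1.85), Mmp3 (-1.53), Tnfaip3 (-1.15), Nfkb1 (-0.94), Nfkbia (-0.87), Nfkb2 (-0.85), Ccl2 (-0.77) and Ccl20 (-0.70). It was also negative for Nr3c2 (-2.94) and Nr4a3 (-2.53) and positive for Hmgcs1 (0.97). Mmp3 had 245 and 231 CPM at 8 h and 50.1 and 56.5 CPM at 3 h in WT cells, and 91.6 and 87.8 CPM at 8 h and 6.65 and 7.24 CPM at 3 h in RelA-TA-KI cells, so it rose in both genotypes.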

How the results depend on the processing

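For the 759 calls of the WT step, RLE scaling (758 calls), a stricter filter (743) and DESeq2 (581, of which 541 were also called by edgeR) stayed within 1.5 times the count. No filter gave 1331 calls, the 10 WT libraries 275 and the 4 libraries of the step 1, with fewer samples in the fit. Deviations of same-numbered libraries correlated at 0.0741 to 0.478 in WT cells (9 of 10 pairs of groups over 0.1). In RelA-TA-KI cells they correlated at 0.162 to 0.371 (10 of 10), a hint of shared sources. In WT cells Xist exceeded Ddx3y in 5 of 5 libraries of replicate 1 and in 0 of 5 of replicate 2. The WT numbers thus mark cells of different sex at every time. The labels do not name the source behind a number. No block was used in the reported values, so they leave this pairing out. A replicate block within genotype gave 2270 calls and one shared by genotypes 2001; both called Nfkbia (adjusted p = 0.018 and 0.036) and Nfkb2 (0.040 and 0.045) lower, and the first also Cxcl2 (0.014). Leaving out 1 library gave 196 to 533.

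In the order replicate block within genotype, then shared by genotypes, the RelA-TA-KI step (2651) had 4650 and 4351 calls, the difference of steps (449) 1974 and 1645, 1 h against untreated (527) 1402 and 1201, fallers among genes raised by 1 h (11) 29 and 26, list members in all (112) 289 and 259, antiviral genes (25) 38 and 38, cell cycle genes lower (7) 16 and 15, cholesterol genes lower (4) 19 and 17, and the ISRE share of 12.3% was 8.21% and 8.84%. Without a filter the difference had 1180 calls, 1 h 875, early fallers 26, lists 237, antiviral 38, cell cycle 11 and cholesterol 19. On the 8 libraries of both steps the difference had 121 calls. On the 10 WT libraries 1 h had 320, lists 63, antiviral 12, GTPases 4, class I 6, interferon pathway 5, complement 2, cell cycle 3, cholesterol 7 and the ISRE share was 17.1%. On the 4 libraries the lists together had 1 call, and early fallers, antiviral genes, GTPases, class I, interferon pathway, complement, cell cycle, cholesterol and the ISRE share were all 0.

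Leaving out 1 library gave 1039 to 1994 calls of the RelA-TA-KI step, 167 to 467 of the difference, 249 to 357 at 1 h, 6 to 9 early fallers, 34 to 107 list members, 8 to 27 antiviral genes, 1 to 12 GTPases, 3 to 12 class I genes, 4 to 9 interferon pathway genes, 2 to 4 complement genes, 2 to 4 cell cycle genes, 0 to 2 cholesterol genes and ISRE shares of 7.77 to 16.3%. Uncalled steps that changed sign were those of Il6 (-0.12 without replicate 2 of 8 h; range to 0.64), Arg1 (0.0051 without replicate 1 of 3 h; range from -1.78) and Col2a1 (0.44 without replicate 1 of 3 h and 0.29 without replicate 2 of 8 h; range from -0.82). The uncalled difference of steps of Isg15 (0.38) ran from -0.28 to 1.18. The cause of these shifts was not tested. Genes at a few CPM rest on few counts, so counting error is larger for them.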

Other observations

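The circadian output list, which the report does not describe, had 2 of 15 genes called higher and 2 called lower in the WT step (median log2 change -0.19). Nfil3, a repressor of clock-controlled genes, rose by 0.56, with 30.6 and 36.7 CPM at 8 h against 19.9 and 25.5 CPM at 3 h, and Per1, a core clock repressor, rose by 0.37. Nr1d1 (REV-ERB alpha) fell by 0.59, with 20.8 and 15.7 CPM at 8 h against 31.1 and 23.96 CPM at 3 h. The guidance receptor gene Plxna4 fell by 1.34, with 17.9 and 21.7 CPM at 8 h against 44.2 and 55.7 CPM at 3 h, and the endothelial factor Erg, 1 of 9 endothelial markers called, fell by 1.48.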
